A study of Mus musculus with 11 samples.

Results

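The 8 genes Pdlim4, Lypd6b, Sgk1, Tdrp, Dapl1, Hs3st3b1, Igfbp4 and Actn1, were followed across 3 groups of sorted mouse CD4 T cells, out of 18193 genes measured. They were chosen because their signal on these same arrays was lower in Treg than in TN cells, so that difference is given as a description and is not tested. All 18 probe sets assigned to the 8 genes were read, and a gene is represented by its brightest probe set, judged by the mean of all 11 arrays. GFPKO (n = 3 arrays) was GFP-positive CD4 T cells from Foxp3GFPKO/WT mice, which carry a wild-type allele of this X-linked gene and a null allele marked by GFP. Treg (n = 5) was Foxp3-positive CD4 T cells, and TN (n = 3) was naive CD4 T cells without Foxp3. Mice were 6 to 8 weeks old in every group, and the cells, from spleen and lymph node, were selected for CD4 with beads and then double sorted by GFP among other markers that the labels do not name. The labels give no strain, no genotype for the Treg and TN mice, and no statement that arrays of a group came from separate animals, so the p-values refer to the variation among these arrays, part or all of which may be technical.

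Naive T cells circulate in a quiescent state between blood and lymphoid organs, and they express a set of genes that is shut off when they are activated or take on an effector or regulatory identity. Regulatory T cells are defined by the transcription factor Foxp3, which their suppressive function requires. Cells that transcribe a Foxp3 null allele start along the regulatory path without making functional Foxp3, so a comparison of GFPKO with Treg and with TN asks how much of a change seen in Treg is also present where the allele is null.

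The check of the labels went against one of them. The single Foxp3 probe set read 6.75, 7.19 and 6.86 on the log2 scale in GFPKO, against 3.29 to 3.64 in Treg and 3.12 to 3.99 in TN. "Treg" therefore means the arrays labelled Treg throughout, and any direction involving them depends on it. Still, 9 of the 10 Treg markers examined, such as Il2ra (9.18 ± 0.13 in Treg, 3.56 ± 0.36 in TN), were called higher on these arrays than in TN. The median log2 difference of the 10 from TN was 3.95, against 0.03 over all genes. These markers mark GFPKO as well, since 10 of 10 were called higher there than in TN (2.64% of all genes were). Between GFPKO and Treg 6 were lower in GFPKO (6.88% of all genes were) and 1, Foxp3, was higher (2.55%). Which part of the transcript the probe set reads, relative to the changed part of either allele, is not known here. The highest Foxp3 value in TN, 3.99, was taken as background, and a group mean at or below it gives only a bound. Xist read 11.07 to 11.85 in GFPKO and at most 3.96 elsewhere, and 3 Y-linked genes read at most 3.38 in GFPKO and at least 4.29 elsewhere, so sex and genotype cannot be told apart in any comparison with GFPKO. The GFPKO arrays were also less alike than the others, with correlations across genes of 0.979 to 0.990, against 0.990 to 0.997 in Treg and 0.994 to 0.995 in TN. Markers of other cells moved with the groups. Of 10 myeloid and dendritic markers 5 were called lower in GFPKO than in TN (3.02% of all genes were). The mean level of the list was 4.59 to 4.85 in GFPKO, 4.84 to 5.19 in Treg and 5.46 to 5.90 in TN. Not every gene of this list moved that way. Between Treg and TN 5 were called lower in Treg (3.42% of all genes were) and 1, Lyz2, higher (difference 1.43, limma adjusted p = 0.041). Lyz2 read 5.55 to 7.55 in GFPKO, 6.07 to 7.82 in Treg and 4.99 to 5.91 in TN. It was not called between GFPKO and TN (adjusted p = 0.31). The NK cell marker list lay at 3.48 to 3.73 in GFPKO, 3.44 to 3.56 in Treg and 4.84 to 5.25 in TN, carried by Klrd1 and Eomes, while Ncr1 and Klra8 were at background in every group, as were Itgam and Cd14 of the myeloid list. Of 7 B cell markers 5 were at background in each group. In GFPKO 1 was called higher than in TN (2.64% of all genes were) and 1 lower (3.02%). The higher was Cd79b, at 6.01 ± 0.29 in GFPKO, 7.63 ± 0.24 in Treg and 4.36 ± 0.26 in TN. The lower was Ms4a1, whose mean was under background in all groups, so that its call gives no difference in level. Of the 2 CD8 T cell genes, both above background in every group, Cd8b1 was lower in GFPKO than in TN (6.98 ± 0.24 in GFPKO against 7.60 ± 0.12 in TN, difference -0.62, adjusted p = 0.014). The part of these markers in the differences below was not tested. The 7 measured CD4 T cell markers, Cd3e and Cd4 among them, were above background in all 3 groups. In sorted bulk samples fewer cells expressing a gene and less RNA per cell cannot be told apart.

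The RefSeq promoter table (GRCm38.p6) held 11 start sites of 6 of the 8 genes. The windows of 4 of them, of 250 bases before to 50 after the start, are shown because they span the responses described below: Hs3st3b1 was at background in GFPKO, Dapl1 lay nearer to Treg than to TN, Pdlim4 had the widest range, and Igfbp4 one of the narrowest. Capitals mark any match to 5 short motifs searched on both strands.
Hs3st3b1, chr11:63922235-63922534, minus strand: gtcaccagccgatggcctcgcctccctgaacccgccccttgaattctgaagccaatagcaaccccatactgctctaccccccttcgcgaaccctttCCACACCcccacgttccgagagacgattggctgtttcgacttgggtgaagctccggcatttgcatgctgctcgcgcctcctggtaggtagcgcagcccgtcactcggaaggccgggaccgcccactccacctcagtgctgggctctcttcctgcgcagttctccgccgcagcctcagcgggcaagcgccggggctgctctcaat
Dapl1, chr2:59484403-59484702, plus strand: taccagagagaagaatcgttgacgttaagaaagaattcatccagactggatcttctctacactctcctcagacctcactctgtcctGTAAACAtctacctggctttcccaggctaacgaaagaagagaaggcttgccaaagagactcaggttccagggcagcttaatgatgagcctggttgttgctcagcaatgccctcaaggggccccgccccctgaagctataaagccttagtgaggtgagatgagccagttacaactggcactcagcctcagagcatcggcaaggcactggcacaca
Pdlim4, chr11:54068968-54069267, minus strand: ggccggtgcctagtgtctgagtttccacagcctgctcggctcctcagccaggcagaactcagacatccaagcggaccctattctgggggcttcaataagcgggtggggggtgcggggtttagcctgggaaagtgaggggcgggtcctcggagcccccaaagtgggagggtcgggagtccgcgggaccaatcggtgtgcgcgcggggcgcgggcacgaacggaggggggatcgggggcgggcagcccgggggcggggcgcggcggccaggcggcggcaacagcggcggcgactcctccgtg
Igfbp4, chr11:99040994-99041293, plus strand: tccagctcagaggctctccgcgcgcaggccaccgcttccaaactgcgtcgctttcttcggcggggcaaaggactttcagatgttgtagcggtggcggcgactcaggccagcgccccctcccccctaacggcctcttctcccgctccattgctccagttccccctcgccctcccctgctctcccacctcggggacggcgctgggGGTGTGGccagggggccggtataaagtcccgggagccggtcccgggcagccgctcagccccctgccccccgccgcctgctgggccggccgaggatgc

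The motifs were TGTTTAC for forkhead factors such as Foxp3 and Foxo1, ATCAAAG for TCF and LEF factors, CGGAAGT for ETS factors, TGTGGTT for RUNX factors and GGTGTGG for Krüppel-like factors. The forkhead letters stood in 1 of the 11 windows, that of Dapl1, and in 3.65% of all 32817 promoter windows. The Krüppel-like letters stood in 3 of the 11, from Hs3st3b1, Igfbp4 and Sgk1, and in 7.58% of all windows. Most of the 11 windows were start sites of Sgk1, and each other gene with a window had 1. Enrichment of a motif was not tested. The TCF and LEF letters were found in 1 window, of Sgk1 (3.73% of all), and neither the ETS (6.41% of all) nor the RUNX letters (5.27% of all) in any. No 2 of the shown matches overlapped. A match describes letters in a window and not a bound site.

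GFPKO cells stood between Treg and TN in 7 of the 8 genes, with no overlap between the arrays of any pair of groups. Over all genes this order, with Treg lowest, was found in 0.396%, but the choice of the members had already fixed that Treg lay under TN, which held for 8 of 8 members and 7.84% of all genes. All GFPKO arrays were below all TN arrays in 8 of the 8 genes (11% of all genes), and above all Treg arrays in 7 (3.31% of all genes). The exception was Hs3st3b1, whose GFPKO and Treg arrays overlapped at background. Against TN, 7 of the 8 genes were lower in GFPKO at an adjusted p under 0.05 in limma (3.02% of all genes were called lower), with a median log2 difference of -1.53 over the 8 genes and -0.04 over all genes. Against Treg, 7 of the 8 were higher in GFPKO (2.55% of all genes were called higher), with a median of 1.60, against -0.08 over all genes. Both contrasts share arrays with the one that chose the genes, TN in the first and Treg in the second. The description of that contrast, Treg minus TN, gave a median log2 difference of -3.29 over the 8 genes, against 0.03 over all genes, and 3.42% of all genes were called lower in it.

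**Figure D1:**
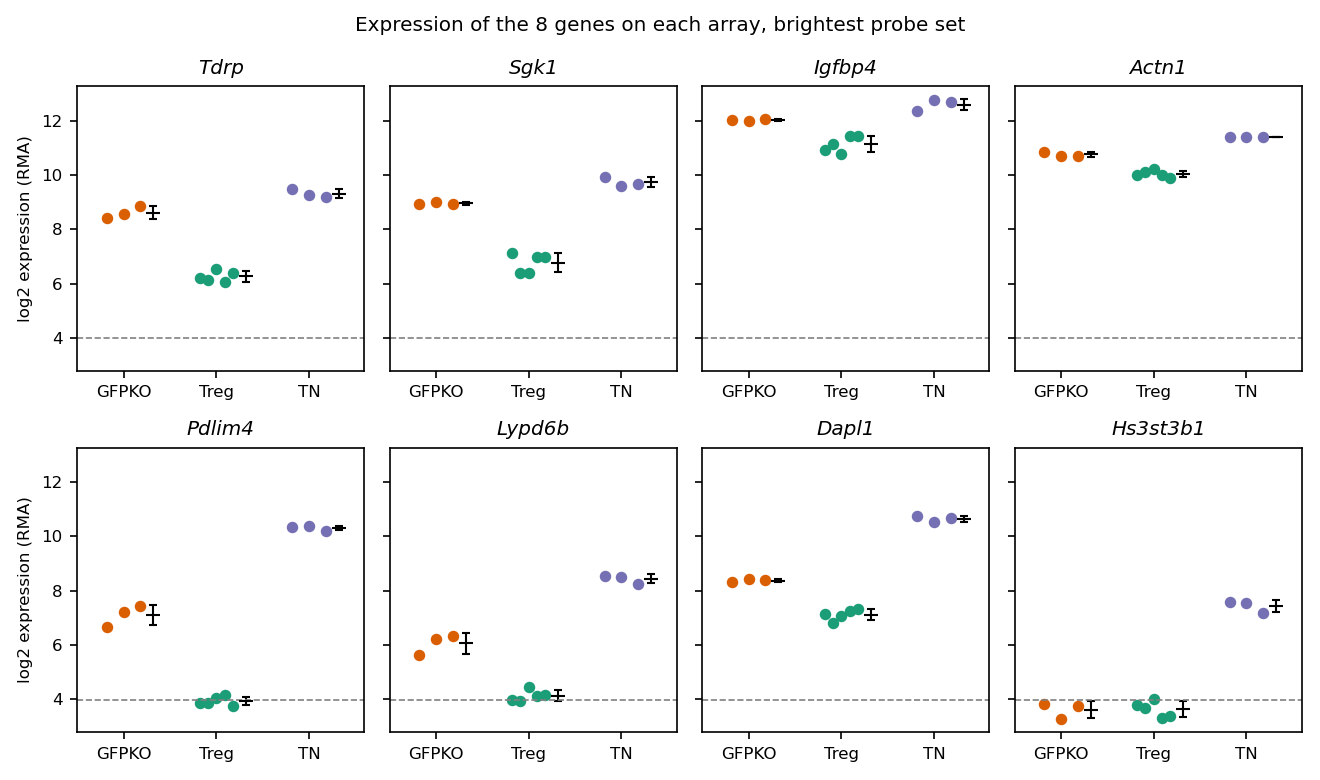
Log2 expression (RMA, vertical axis) of the brightest probe set of each gene on every array of GFPKO, Treg and TN. Points are arrays, the black mark beside them is the mean with its SD, and the dashed line is the background of 3.99; GFPKO lies between the other groups in every panel but Hs3st3b1.

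To place GFPKO between the other groups, its distance under the TN mean was divided by the distance from the TN mean to the Treg mean, both on the log2 scale, so that 0% is the TN mean and 100% the Treg mean. The SD is over the 3 GFPKO arrays and leaves out the error of the TN and Treg means. The order was Tdrp at 23.2% ± 7.6, Sgk1 at 26.4% ± 1.5, Igfbp4 at 38.7% ± 2.1, Actn1 at 47.5% ± 6.2, Pdlim4 at 50.4% ± 6.0, Lypd6b at 55.0% ± 8.9, Dapl1 at 64.6% ± 1.5 and Hs3st3b1 at 100.6% ± 8.2. The Treg mean was under background for Pdlim4 and Hs3st3b1, so their distance from TN to Treg is only a lower bound. For Pdlim4, whose GFPKO arrays were well above background, the position is at most 51.2%, and its place in the order is not settled. For Hs3st3b1, with GFPKO at background too, the position shows only that both groups lay at the floor. The ranges of the 3 arrays overlapped between neighbours for Tdrp and Sgk1, Actn1 and Pdlim4, Pdlim4 and Lypd6b, and Lypd6b and Dapl1. They did not overlap between Sgk1 and Igfbp4, Igfbp4 and Actn1, or Dapl1 and Hs3st3b1. These ranges are of the brightest probe set only and leave out the error of the TN and Treg means. Over all its probe sets the position ran from 38.4% to 78.0% for Igfbp4 and from 47.5% to 76.6% for Actn1. The places of Igfbp4 and Actn1 in the order thus depend on the probe set. The median over the 8 genes was 49.0%. It falls between Actn1 and Pdlim4, whose own places are not settled, so it is only approximate. In GFPKO replicates 1, 2 and 3, the arrays least alike over all genes, the median was 48.7%, 50.2% and 46.8%. Single genes shifted more, and not all in the same direction. From replicate 1 to 3 Lypd6b went from 65.1% to 48.3%, Tdrp from 30% to 15.1% and Actn1 from 40.4% to 50.2%. The position depends on the scale: with unlogged values it was 90.1% for Pdlim4, 84.6% for Lypd6b, 48.4% for Sgk1, 43.8% for Tdrp and 71.9% in the median.

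**Figure D2:**
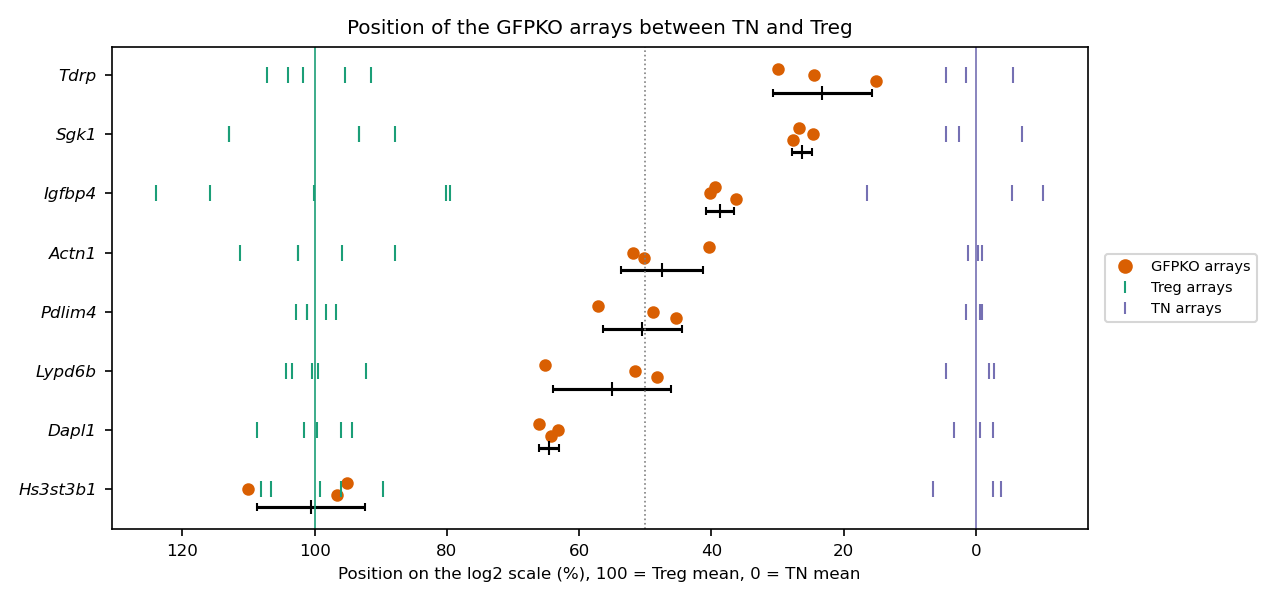
Position of each array on the log2 scale, in percent of the distance from the TN mean (0) to the Treg mean (100), for the 8 genes in order. Circles are the 3 GFPKO arrays with their mean and SD in black, ticks are the Treg and TN arrays, and the dotted line is halfway; Tdrp and Sgk1 lie nearest TN, and Hs3st3b1 overlaps the Treg arrays.

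The side of the halfway point was tested with the contrast of GFPKO minus the mean of the Treg and TN groups. GFPKO was above halfway, toward TN, for Tdrp (log2 difference 0.82 ± 0.14 SE, limma adjusted p = 0.002) and Sgk1 (0.70 ± 0.16, adjusted p = 0.021), and 1.71% of all genes were called in that direction. It was under halfway, toward Treg, for Dapl1 (-0.51 ± 0.12, adjusted p = 0.021), and 3.75% of all genes were. The 95% intervals spanned 0 for Lypd6b (-0.55 to 0.12), Igfbp4 (-0.15 to 0.48) and Actn1 (-0.19 to 0.26). No side is given for Hs3st3b1 and Pdlim4, whose Treg mean was under background, so that their halfway point is not known. The call of Dapl1 was lost without TN replicate 1 (adjusted p = 0.056), GFPKO replicate 1 (0.074) or GFPKO replicate 2 (0.065), and that of Sgk1 without TN replicate 2 (0.054), GFPKO replicate 1 (0.059) or GFPKO replicate 2 (0.097). Both were also lost with an RNA integrity covariate, the 3′ minus 5′ signal of the actin control probe sets (adjusted p = 0.17 for Dapl1 and 0.25 for Sgk1). That signal was 0.45 to 0.83 in GFPKO, 0.44 to 0.61 in Treg and 0.38 to 0.53 in TN. The call of Tdrp held without any single array and with that covariate (1.05, adjusted p = 0.00093).

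**Figure D3:**
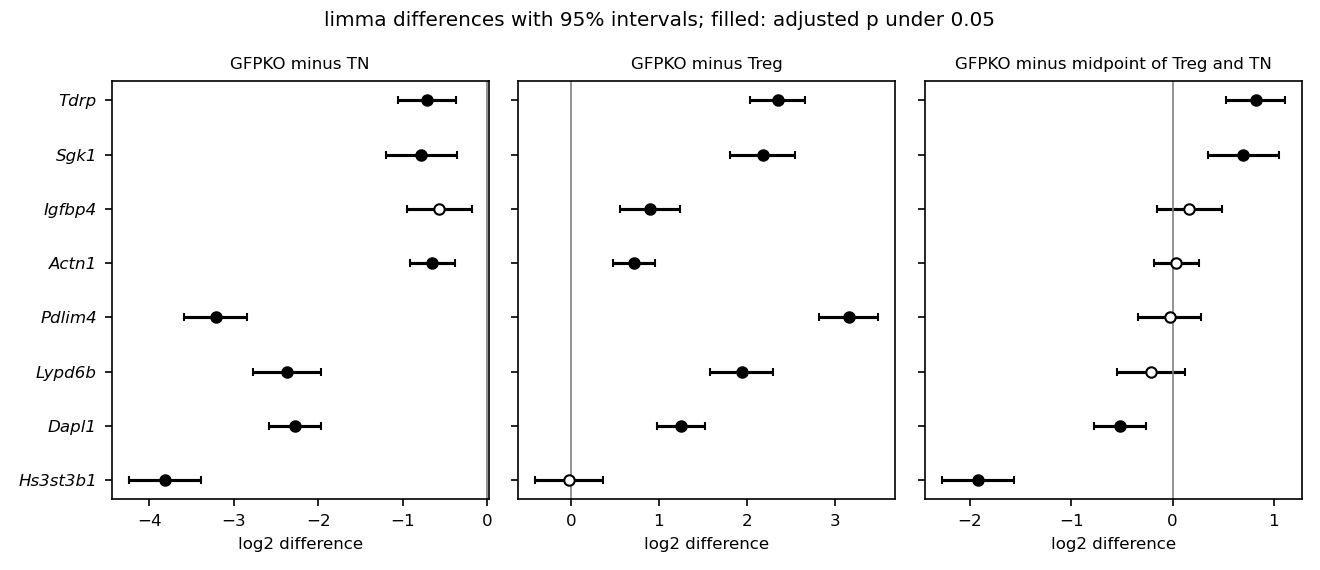
Log2 differences from limma (horizontal axes) with 95% intervals for GFPKO minus TN, GFPKO minus Treg and GFPKO minus the midpoint of Treg and TN. Filled points have an adjusted p under 0.05; Igfbp4 is open in the first panel, Hs3st3b1 in the second, and Pdlim4, Lypd6b, Igfbp4 and Actn1 in the third, where the points of Pdlim4 and Hs3st3b1 are measured against a Treg mean under background and give no side.

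The proteins of Pdlim4 and Actn1 belong to the actin cytoskeleton. Pdlim4 encodes a PDZ and LIM domain protein that binds alpha-actinin and actin filaments. It read 6.68, 7.20 and 7.42 in GFPKO, against 3.87, 3.87, 4.05, 4.15 and 3.76 in Treg and 10.35, 10.37 and 10.21 in TN. The Treg arrays lay around the background, the TN arrays far above it, and the GFPKO arrays near the middle without touching either. Pdlim4 was 9.26-fold lower in GFPKO than in TN (log2 difference -3.21 ± 0.17 SE, limma adjusted p = 1.4e-08) and at least 8.36-fold higher in GFPKO than in Treg (fitted log2 difference 3.16 ± 0.16, adjusted p = 1.1e-08). Treg was at least 77.4-fold below TN, a bound because the Treg mean of 3.94 was under background. GFPKO replicate 1 was the lowest of the 3, at 57.1% of the way to Treg, against 48.9% and 45.3%.

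Actn1 encodes alpha-actinin 1, which cross-links actin filaments at adhesion sites. Its brightest probe set read 10.85, 10.69 and 10.71 in GFPKO, against 10.00, 10.09, 10.20, 10.00 and 9.88 in Treg and 11.40, 11.38 and 11.41 in TN. The groups did not overlap, although their differences were the smallest of the 8 genes between Treg and TN (-1.36 ± 0.11). GFPKO was 1.57-fold lower than TN (-0.65 ± 0.12, adjusted p = 0.0046) and 1.64-fold higher than Treg (0.72 ± 0.11, adjusted p = 0.00073). Both other Actn1 probe sets were lower in GFPKO than in TN too, by 0.73 and 0.71 on the log2 scale, the first at an adjusted p of 0.014 and the second at 0.095 in limma over all probe sets. Neither was called against Treg (0.22 at adjusted p = 0.37 and 0.54 at adjusted p = 0.093), so that the position moved to 76.6% and 56.6%.

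A further 18 genes of this group were the PDZ and LIM family, the other alpha-actinins and their partners at focal adhesions. Of them 2 were called lower in GFPKO than in TN (3.02% of all genes were) and 0 higher (2.64%). These were Actn2, a muscle alpha-actinin (4.19 ± 0.56 in GFPKO, 6.07 ± 0.06 in TN, difference -1.88, adjusted p = 4e-05), and Pdlim1 (-0.78, adjusted p = 0.0052). Against Treg 1 was lower (6.88% of all genes were), again Actn2 (-1.34, adjusted p = 0.00038), and 1 was higher, Pdlim5 (0.93, adjusted p = 0.017). The closest relative by function, Actn4, the other widely expressed alpha-actinin, differed by 0.15 from TN and by 0.16 from Treg and was not called in either contrast (adjusted p = 0.72 and 0.54). The median of the 18 genes was -0.15 against TN and -0.17 against Treg.

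Sgk1 encodes serum- and glucocorticoid-regulated kinase 1, which is activated through PI3K, mTORC2 and PDK1 and acts on Foxo factors and the ubiquitin ligase Nedd4l. In mouse helper T cells it is known to promote the Th17 programme. Sgk1 read 8.93, 9.00 and 8.91 in GFPKO, against 7.13, 6.39, 6.39, 6.97 and 6.97 in Treg and 9.93, 9.59 and 9.65 in TN. The GFPKO arrays were within 0.1 of each other and nearer to TN, while the Treg arrays spread most of all groups. GFPKO was 4.52-fold higher than Treg (2.18 ± 0.17, adjusted p = 1.6e-06) and 1.72-fold lower than TN (-0.78 ± 0.20, adjusted p = 0.027). The call against TN was lost without TN replicate 1 (adjusted p = 0.15), 2 (0.057) or 3 (0.061) and without GFPKO replicate 1 (0.051) or 2 (0.075), while the difference stayed between -0.85 and -0.68. It was also lost with the RNA integrity covariate (-0.88, adjusted p = 0.084).

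Of 18 further genes of the SGK1 pathway, 2 were lower in GFPKO than in TN (3.02% of all genes were) and 0 were higher (2.64%). They were Nedd4l itself (-1.09, adjusted p = 0.0034) and Sgk3, a related kinase (-0.86, adjusted p = 0.0037), which read 7.14 ± 0.26 in GFPKO, 6.75 ± 0.18 in Treg and 8.00 ± 0.15 in TN. Against Treg 2 were higher in GFPKO (2.55% of all genes were) and none lower (6.88%). The 2 were Pdpk1, which encodes PDK1 (0.96, adjusted p = 0.0027), and Rictor, a subunit of mTORC2 (0.96, adjusted p = 0.020). The third kinase of the family, Sgk2, had a mean below background in all groups. The medians of the list were -0.05 against TN and 0.01 against Treg.

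Tdrp, which encodes testis development-related protein, lay nearer to TN, as Sgk1 did. It read 8.40, 8.57 and 8.86 in GFPKO, against 6.21, 6.14, 6.52, 6.04 and 6.40 in Treg and 9.49, 9.27 and 9.18 in TN. The GFPKO arrays lay just under TN and far above Treg. GFPKO was 5.09-fold higher than Treg (2.35 ± 0.14, adjusted p = 8.1e-08) and 1.63-fold lower than TN (-0.71 ± 0.16, adjusted p = 0.015), the second being lost without TN replicate 1 (adjusted p = 0.094) or GFPKO replicate 2 (0.061). With the RNA integrity covariate the difference from TN shrank to -0.44 (adjusted p = 0.26).

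Dapl1 encodes death-associated protein-like 1, a small relative of the protein Dap. It read 8.31, 8.42 and 8.38 in GFPKO, against 7.13, 6.81, 7.06, 7.26 and 7.32 in Treg and 10.74, 10.53 and 10.67 in TN. All 3 groups were tight and well apart. GFPKO was 4.85-fold lower than TN (-2.28 ± 0.14, adjusted p = 8.6e-08) and 2.38-fold higher than Treg (1.25 ± 0.13, adjusted p = 1.8e-05). Dap itself was called in neither contrast (-0.13 and 0.61, adjusted p = 0.85 and 0.052). The list set beside Dapl1 and Tdrp held 5 genes, Dap, Eif5a, Dnttip1, Tdrd1 and Tdrd7, and only Dap is taken here as a relative. Of the 5 only Tdrd7, a tudor domain gene, was called, higher in GFPKO than in TN (0.94, adjusted p = 0.0047).

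Lypd6b encodes a protein of the Ly6 and uPAR family that is anchored in the membrane and modulates nicotinic acetylcholine receptors. It read 5.63, 6.22 and 6.35 in GFPKO, against 3.98, 3.94, 4.46, 4.11 and 4.15 in Treg and 8.55, 8.52 and 8.24 in TN. The Treg arrays were close to background, with a mean of 4.13, and the GFPKO arrays lay midway, replicate 1 lowest. GFPKO was 5.17-fold lower than TN (-2.37 ± 0.19, adjusted p = 9.4e-07) and 3.84-fold higher than Treg (1.94 ± 0.17, adjusted p = 3.2e-06). Its nearest relative Lypd6 was below background in all groups. Of 15 further family members measured, 8 had a mean above background in some group, and only Ly6d was called, lower in GFPKO than in TN (4.66 ± 0.04 in GFPKO against 6.59 ± 0.21 in TN, difference -1.93, adjusted p = 5.5e-06).

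Hs3st3b1 encodes a heparan sulfate 3-O-sulfotransferase, which adds a rare sulfate group to heparan sulfate chains at the cell surface. It read 3.83, 3.26 and 3.77 in GFPKO, against 3.79, 3.67, 4.03, 3.33 and 3.39 in Treg and 7.58, 7.53 and 7.19 in TN. Both GFPKO and Treg were at background, so no order between them can be read (fitted difference -0.02, 95% interval -0.40 to 0.36), and 100.6% is a position at the floor of the measurement. GFPKO was at least 10.9-fold lower than TN (fitted log2 difference -3.82 ± 0.20, adjusted p = 1.1e-08), and Treg at least 10.8-fold lower. The other 3 probe sets of the gene did not carry this difference: they stayed between 2.66 and 4.59 on all arrays, and none was called in either contrast. The result thus rests on a single probe set. Of 20 further genes that build or trim heparan sulfate, 14 were above background in some group. The extracellular sulfatase gene Sulf2 was called higher in GFPKO than in TN (0.77, adjusted p = 0.0065), and Hpse, which encodes heparanase, was lower in GFPKO than in Treg (3.69 ± 0.13 in GFPKO, at background, against 4.17 ± 0.20 in Treg, adjusted p = 0.046). The close paralog Hs3st3a1 lay below background in all groups.

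Igfbp4 encodes a secreted protein that binds insulin-like growth factors and keeps them from their receptor. Its brightest probe set read 12.01, 12.00 and 12.06 in GFPKO, against 10.90, 11.13, 10.78, 11.43 and 11.42 in Treg and 12.35, 12.74 and 12.67 in TN. The GFPKO arrays were nearly identical and lay between the other groups without overlap. GFPKO was 1.86-fold higher than Treg (0.90 ± 0.16, adjusted p = 0.0022). Against TN the difference of -0.56 ± 0.18 was not called (adjusted p = 0.088, 95% interval -0.95 to -0.18). It stayed uncalled whichever single array was left out (limma adjusted p = 0.075 to 0.30). It was called with array weights (-0.60, adjusted p = 0.0056) and with trended and robust moderation (-0.56, adjusted p = 0.037). Probe sets averaged (-0.79, adjusted p = 0.013) and the most variable probe set (-0.95, adjusted p = 0.024) also gave a call. The array weights rested mostly on GFPKO replicate 2 (weight 5.11, against 0.25 and 0.31 for the other GFPKO arrays). The 6 probe sets of Igfbp4 differed here: 3 of them were called lower in GFPKO than in TN in the fit over all probe sets, by 0.95 to 0.98 on the log2 scale, where 1.63% of all probe sets were called lower. Against Treg 5 of the 6 were higher in GFPKO, by 0.89 to 1.12, where 4.73% of all probe sets were called higher. The position of GFPKO ran from 38.4% to 78.0% over the 6. Probe sets of the suffix x or s can pick up related transcripts, and 3 of the 6 carry one. Of 16 further genes of the insulin-like growth factor system, 9 were above background in some group. GFPKO exceeded TN in 2 of the 16, both receptors (2.64% of all genes were called higher), and was lower in 0 (3.02%). These 2 were Igf2r (11.13 ± 0.09 in GFPKO, 10.87 ± 0.08 in Treg and 9.35 ± 0.25 in TN, GFPKO minus TN 1.78, adjusted p = 7.8e-07) and Igf1r (1.26, adjusted p = 0.0020). None of the 16 was called between GFPKO and Treg at an adjusted p under 0.05 in limma. The other 6 Igfbp genes measured were not called in either contrast, but Igfbp1, Igfbp2, Igfbp3 and Igfbp6 were below background in all groups.

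**Figure D4:**
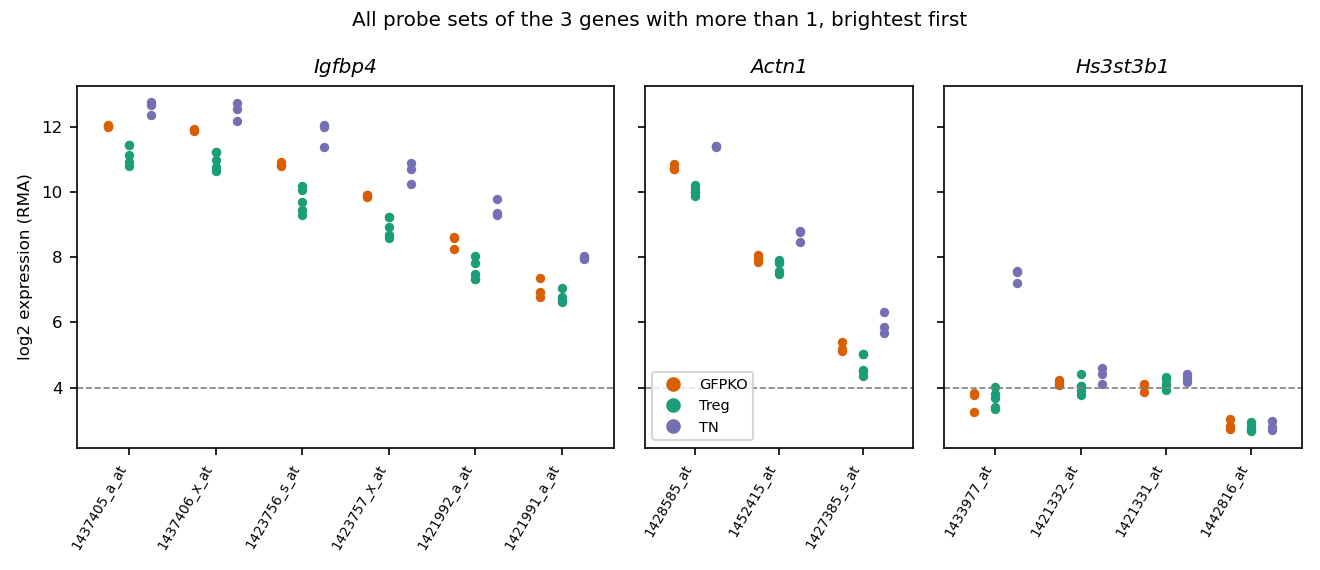
Log2 expression (RMA, vertical axis) of every probe set of Igfbp4 (6), Actn1 (3) and Hs3st3b1 (4) on each array, brightest at the left, with the background of 3.99 dashed. The TN arrays lie highest in each Igfbp4 and Actn1 probe set, and for Hs3st3b1 only the brightest probe set sets TN apart.

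The other genes of naive and quiescent T cells, a list of 26 of which 23 were measured, did not all follow the members. The list was drawn up with earlier results of these data known. It holds Pde3b, Slc16a5 and Lef1, each among the genes most like a member, so its counts are not independent of the members. Of the 23, 11 were higher in GFPKO than in Treg (2.55% of all genes were) and none was lower (6.88%). The median difference was 0.48, against -0.08 over all genes. Against TN 6 were lower (3.02% of all genes were) and 1 was higher (2.64%) in GFPKO, with a median of -0.21, against -0.04 over all genes. The largest differences from Treg were those of Pde3b, a cyclic nucleotide phosphodiesterase (4.04 ± 0.19), the transporter gene Slc16a5 (1.68), and S1pr1, the receptor that lets T cells leave lymph nodes (1.19, adjusted p = 0.0039). The largest from TN were those of Slc16a5 (-1.73), Il7r, the interleukin 7 receptor chain that sustains naive cells (-1.62, adjusted p = 0.0014), and Als2cl (-1.40). Il7r read 9.77 ± 0.44 in GFPKO, 9.31 ± 0.48 in Treg and 11.40 ± 0.11 in TN. S1pr1 read 10.58 ± 0.14 in GFPKO, 9.40 ± 0.37 in Treg and 9.94 ± 0.54 in TN, highest in GFPKO, although it was not called against TN (adjusted p = 0.19). Among the 11, Bach2, Foxp1 and Trib2 also had their highest mean in GFPKO. Like S1pr1, they were not called between Treg and TN. The gene called higher in GFPKO than in TN was Igf1r, given above.

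**Figure D5:**
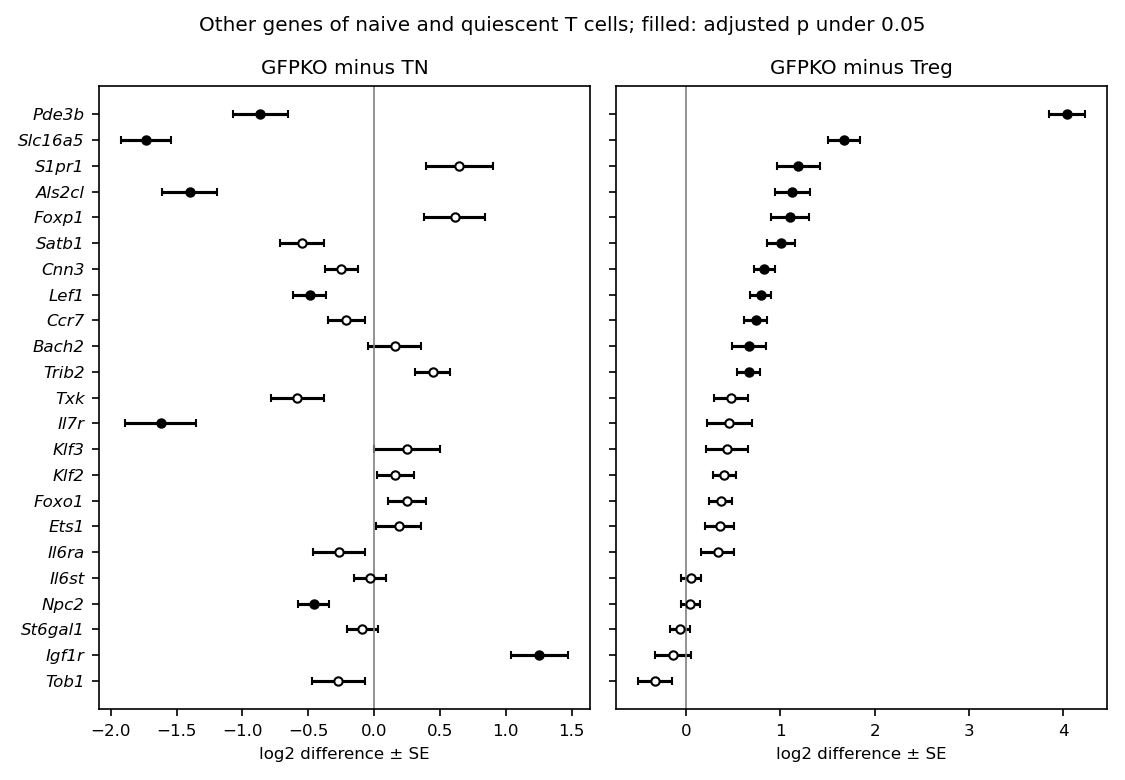
Log2 differences with their SE for 23 other genes of naive and quiescent T cells, GFPKO minus TN at the left and GFPKO minus Treg at the right, ordered by the difference from Treg. Filled points have an adjusted p under 0.05; 11 genes are filled to the right of 0 against Treg, and 6 to the left and 1 to the right of 0 against TN.

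Likeness of pattern was measured as the root mean square difference of log2 values over the 11 arrays, after each gene's own mean was taken off. The values were not scaled, so genes with small differences between groups tend to lie closer by this measure than genes with large ones. Among the members the closest pairs were Igfbp4 and Actn1 (0.27), Sgk1 and Tdrp (0.31), and Lypd6b and Dapl1 (0.43). Among other genes Lef1, which encodes a partner of beta-catenin in transcription, was closest to Actn1 (0.12), with 11.47 ± 0.18 in GFPKO, 10.68 ± 0.07 in Treg and 11.95 ± 0.04 in TN. Slc20a1, a phosphate transporter gene, came next (0.15). Tgfbr3, a co-receptor for TGF-beta, was closest to both Tdrp (0.28) and Sgk1 (0.35), followed by Pou2af1 (0.39 and 0.37). Vipr1, whose product binds vasoactive intestinal peptide, was closest to Lypd6b (0.30), and Atp8b4 to Dapl1 (0.31), each followed by Slc16a5 (0.42 and 0.33). Igfbp4 was nearest to Gucd1 (0.19) and to Tec, a kinase gene (0.20). Hs3st3b1 was nearest to Arhgap29 (0.41) and Atp8b4 (0.49). Pdlim4 had no gene as close, its nearest being Pde3b (0.95) and Klrd1 (1.05). Neither shared its middle place in GFPKO: Pde3b read 9.21 ± 0.35 there against 10.08 ± 0.11 in TN, and Klrd1 3.96 ± 0.57, at background.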

How the data were processed

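Per the submitters' processing notes the authors processed the arrays with RMA, whose version is not given in the sources used here. The deposited values were taken as log2 expression because they ran from 1.54 to 14.65 with array medians of 4.07 to 4.16. No scan date or batch is given in the sources used here, and no detection calls were used, so the number of arrays limits the precision. No pair of the 11 arrays was identical.

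Of 45101 probe sets, 34945 with 1 gene symbol gave 18193 genes. Left out of the fit of genes were 9211 probe sets absent from the gene table, 932 with several symbols and the 64 controls, most of which are among the absent ones; the fit of probe sets left out only the controls. For 34741 of the 34945 the name was updated from RefSeq by Entrez ID. For each gene limma 3.58.1 (R 4.3.3) estimated 1 mean for each of the 3 groups from the 11 arrays, without covariates. Tests were two-sided with Benjamini-Hochberg adjustment over all genes and called at 0.05. Values are means ± SD, and differences ± SE. A fold at least N was taken with dim values raised to 3.99. On simulated data, 81% of changes of 1 on the log2 scale were called for GFPKO minus TN, 88% for GFPKO minus Treg and 85% for the midpoint contrast, over 18193 genes each. The simulated noise was independent between arrays and had the same spread in every group. The real GFPKO arrays were less alike than the others, so these shares need not hold for them.

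The members, lists and tests were chosen with earlier results of these data known. Named besides the members were, per list, the 3 genes with the largest called difference in each GFPKO contrast, relatives of a member, and the 2 genes most like each member. Same-numbered arrays of different groups deviated together (correlation over 0.1) in 3 of 9 pairs, so the numbers were not used as pairs. The 3 were the pairs among the replicate 1 arrays (0.16 to 0.51), and an unlike pair, Treg replicate 5 and GFPKO replicate 3, also reached 0.51. Whether the replicate 1 arrays share an origin was not tested. The alternatives were leaving out each array, fits of 2 groups, a replicate block, array weights, other probe sets, a filter on dim genes, 2 further normalisations, an RNA integrity covariate and other moderation.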

Additional observations from a re-analysis of the deposited data

How the results depend on the processing

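Without 1 array at a time, 7 members stayed higher in GFPKO than in Treg, and 5 to 7 were lower than in TN. For the midpoint, 1 to 2 were called lower and 1 to 2 higher, against 2 each (the lower ones count Hs3st3b1, at background). The median of Treg minus TN was -3.34 to -3.22 and the median position 48.1% to 49.9%. Both medians include Pdlim4 and Hs3st3b1, whose Treg mean was under background. Over all genes the calls ran from 644 (without TN replicate 1) to 1868 (without GFPKO replicate 3) for GFPKO minus TN, 1134 to 3421 for GFPKO minus Treg, and 566 to 2543 for the midpoint, against 1029, 1716 and 995. Fitting only GFPKO and TN called 562 genes, and Tdrp was then lost (adjusted p = 0.060). With the replicate block, GFPKO minus Treg had 1049 calls, Igfbp4 was called against TN (adjusted p = 0.046), and the midpoint had 1 member lower, Dapl1 being lost (0.059). This block changed no other call of a member. With the actin covariate the 3 counts were 570, 811 and 312. The midpoint then had 1 member lower and 1 higher, Dapl1 and Sgk1 being lost (0.17 and 0.25), and Sgk1 and Tdrp were lost against TN (0.084 and 0.26). With array weights they were 5051, 6756 and 6608, GFPKO replicate 2 weighing 5.11 and the other GFPKO arrays 0.25 and 0.31, and Hs3st3b1 was called as 1 member lower than Treg at background. The cause was not tested. Averaging probe sets gave medians of -3.01 for Treg minus TN and 52.7% for the position, and Igfbp4 was called against TN (adjusted p = 0.013). Unlogged values gave a median position of 71.9%.

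Uncalled differences near 0 changed sign. For Hs3st3b1 against Treg they ran from -0.13 to 0.16 without 1 array, and were 0.018 with averaged probe sets and 0.14 with the actin covariate. Against the midpoint, Pdlim4 ran from -0.19 to 0.18 (0.046 with array weights, 0.13 with the covariate), Lypd6b from -0.36 to 0.0030 (0.0040 with the covariate), and Actn1 from -0.014 to 0.064 (-0.033 with array weights, -0.10 with averaged probe sets). Signal near background limits Hs3st3b1 and, in Treg, Pdlim4 and Lypd6b.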
